A study of Mus musculus with 16 samples.

Results

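The G1 cyclins and their kinases were followed through 16 RNA sequencing libraries from postnatal day (P) 4 mouse cochleae. The 9 genes, chosen by name for their role in the cell cycle, were Ccnd1, Ccnd2, Ccnd3, Ccne1, Ccne2, Ccna2, Cdk2, Cdk4 and Cdk6, out of 47729 genes with values. Earlier results of these data were known when they were chosen. All 9 were among the 16994 genes that reached 0.5 counts per 1000000 counted reads (CPM) in every replicate of at least 1 group and were tested. Control mice were GLAST CreERT/+; Rpl22 HA/+, and DTR mice carried in addition Lgr5 DTR/+, the human diphtheria toxin receptor in the Lgr5 locus. According to the study's methods both genotypes received diphtheria toxin and tamoxifen at P1, the toxin being meant to kill the LGR5+ supporting cells of DTR mice, whereas the sample labels list the control as untreated. Cre driven by the GLAST (Slc1a3) promoter adds an HA tag to the ribosomal protein RPL22, and ribosome-bound RNA of the tagged cells was collected with an antibody to HA (IP), while a small part of the same homogenate gave the total RNA (input). Each genotype gave 4 input and 4 IP libraries, and a replicate was a pool of cochleae from several mice whose spiral ganglion, lateral wall and Reissner's membrane had been removed. The p-values therefore measure the spread between these pools, estimated over all 4 groups together. Except where a block is named, the tests treat IP and input of a pool as independent.

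D-type cyclins bind CDK4 and CDK6 and start the phosphorylation of the retinoblastoma protein, which releases E2F transcription factors. E-type cyclins then activate CDK2 and carry the cell into S phase, and cyclin A2 serves CDK2 during S phase and CDK1 later. In the neonatal cochlea the supporting cells have left the cell cycle, and their state is tied to CDK inhibitors such as p27Kip1, the product of Cdkn1b.

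The libraries held 28089836 to 41966310 counted reads, and 3 reads corresponded to 0.0715 to 0.107 CPM, so that every member lay far above the counting limit in every library. Lgr5 fell after damage, from 36.6 to 9.38 CPM in IP (log2 fold change, LFC, of -1.93) and from 63.3 to 15.9 CPM in input. Slc1a3 itself was not higher in IP (LFC = -0.20, adjusted p = 0.102 in control and LFC = -0.27, adjusted p = 0.0299 in DTR). Against control input, control IP had lower levels of 6 of 6 hair cell, 5 of 6 Schwann cell, 6 of 6 macrophage, 5 of 6 mesenchyme, 5 of 6 endothelial, 3 of 6 neuron and 4 of 4 tested red blood cell markers. By the same test, described below, 20.7% of all tested genes were lower and 19.3% higher in control IP than in input. In DTR IP against input 20.5% were lower and 18.6% higher, and after damage in IP 7.3% were lower and 8.44% higher. The markers of greater epithelial ridge (GER) and inner phalangeal cells, in which GLAST is known, were not enriched as a group. Of these 6, 1 was higher and 3 were lower in control IP than in input, 0 were higher and 3 lower in DTR IP than in input, and 0 were higher and 2 lower after damage in IP. Of the 6 LGR5 and lateral supporting cell markers 2 were higher and 2 lower in control IP. After damage, 5 of 6 LGR5 and lateral supporting cell markers were lower in IP, their summed level moving from between 432 and 592 CPM to between 70.0 and 89.4 CPM. In the same comparison 4 of 6 mesenchyme markers were higher, with sums of 2243 to 3371 CPM in control IP and 3898 to 4710 CPM in DTR IP. Macrophage sums went from between 9.09 and 17.4 CPM to between 20.97 and 34.1 CPM (3 of 6 higher), and endothelial sums from between 110 and 139 CPM to between 165 and 192 CPM (2 of 6 higher). Schwann cell sums fell from between 771 and 1200.5 CPM to between 528 and 752 CPM (2 of 6 lower). In input after damage 6 of 6 LGR5 and lateral supporting cell, 5 of 6 Schwann cell and 1 of 6 GER markers were lower. There 3 of 6 macrophage, 2 of 6 GER, 1 of 6 mesenchyme and 1 of 6 endothelial markers were higher. No marker was below 0.1 CPM in any library, and the part of these shifts in the values that follow was not tested. In such bulk samples fewer cells of a type and less RNA per cell cannot be told apart.

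Tests were run with limma on log2(quantile-normalized CPM + 0.5) over all 16994 genes, and a gene passed at a Benjamini-Hochberg adjusted p below 0.05. A stricter call also asked for an absolute LFC of at least 1 (2 for IP against input) and for a separation above 1.5, which is the lowest library of the higher group divided by the highest library of the other. In control mice 6 of the 9 genes were higher in IP than in input (Ccnd2, Ccnd3, Ccne1, Ccne2, Cdk2 and Cdk6), where 39.9% of all tested genes passed and 19.3% were higher. In DTR mice 4 were higher in IP (Ccnd2, Ccnd3, Ccne1 and Cdk6), against a background of 39.2% passing and 18.6% higher. Before clustering, the study corrected its IP samples for an effect of gene length, which was not done here. Exons covered 13.989 kb in Cdk6, 9.409 in Ccnd2, 8.775 in Ccnd3 and 6.219 in Cdk2, but 3.495 in Ccne2 and 2.662 in Ccne1. The other members had 4.709 (Ccnd1), 4.083 (Ccna2) and 3.249 kb (Cdk4). The part of gene length in these calls was not tested. DTR exceeded control for Ccnd2 and Ccna2 both in IP, where 15.7% of genes passed and 8.44% were higher, and in input, where 12.4% passed and 7.17% were higher. By limma without a block 0 of the 9 passed as lower in any of these comparisons, where 20.7%, 20.5%, 7.3% and 5.21% of genes did in the same order, and edgeR also called 0 lower. With the pool, shared by IP and input of 1 replicate, as a blocking term, limma called 1 lower in each IP against input comparison, Ccnd1. DESeq2 called 1 lower, Ccnd3 in DTR against control IP. At an unadjusted p below 0.05 the members passing numbered 6, 5, 4 and 4 (47.5%, 46.9%, 28.4% and 23.2% of all genes), of which 1 was lower, Cdk2 in DTR against control IP. Of the 9, 0 met the stricter call, which 1.26%, 0.977%, 2.47% and 2.34% of genes met in the same order. The median LFC of the 9 genes was 0.73 for control IP against input, 0.62 for DTR IP against input, 0.15 for DTR against control in IP and 0.26 in input, each beside a median between -0.03 and 0.00 over all genes.

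**Figure D1:**
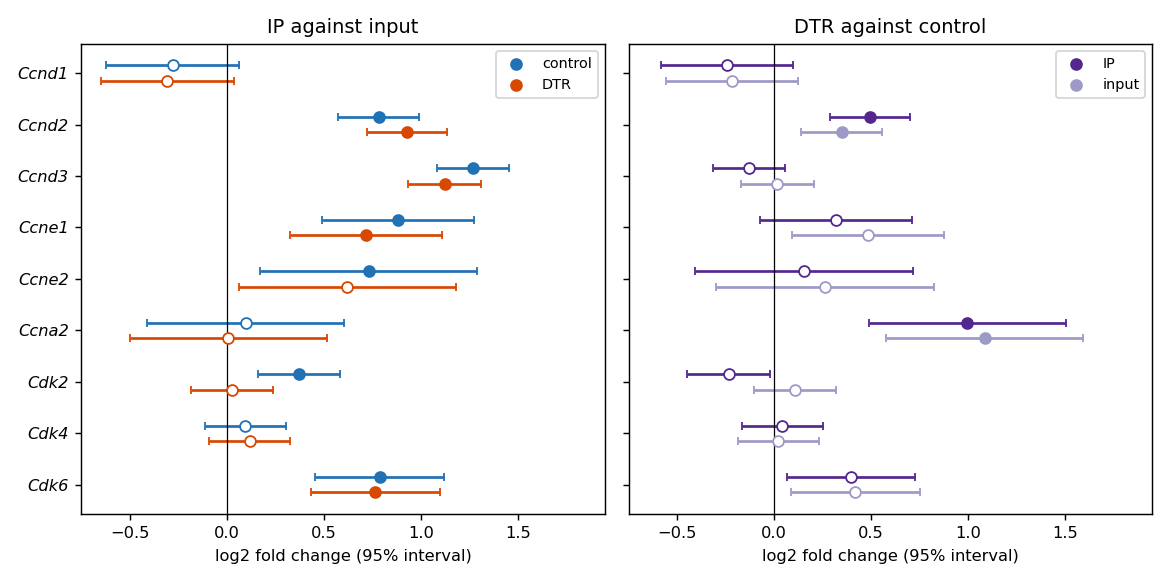
LFC of each gene with its 95% interval from limma, for IP against input (left, control and DTR mice) and for DTR against control (right, IP and input). Filled points passed at an adjusted p below 0.05; Ccnd2, Ccnd3, Ccne1 and Cdk6 are filled in both IP comparisons, and only Ccnd2 and Ccna2 are filled on the right.

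The 3 D-type cyclins, which are partners of the same kinases, were distributed differently between input and IP. Ccnd3 (cyclin D3, chr17:47505051-47599691, plus strand, GRCm38) was measured in control input at 192, 183, 195 and 193 CPM in replicates 1 to 4. In control IP it stood at 470, 420, 445 and 433 CPM. In DTR input it stood at 197, 169, 179 and 218 CPM, and in DTR IP at 386, 390, 393 and 383 CPM. Every IP library lay above every input library, and the 4 DTR IP libraries lay closely together just below the control IP range. Ccnd3 was higher in IP by an LFC of 1.27 (SE 0.09, adjusted p = 4.56e-09) in control and 1.12 (SE 0.09, adjusted p = 2.63e-08) in DTR mice. Its change after damage did not pass in IP (LFC = -0.13, SE 0.09, adjusted p = 0.371), although the deposited CPM of the groups did not overlap. DESeq2 on the recovered reads did call it lower there (LFC = -0.26, adjusted p = 0.030). A processed pseudogene, Ccnd3-ps, is near-identical to 18.6% of the longest Ccnd3 transcript, and its own level stayed at or below 1.18 CPM.

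Ccnd2 (cyclin D2, chr6:127125162-127152193, minus strand) was the D-type cyclin that rose after damage. Its level was 180, 178, 157 and 164 CPM in control input and 208, 220, 213 and 220 CPM in DTR input. The IP libraries held 317, 303, 251 and 266 CPM in control and 330, 390, 426 and 398 CPM in DTR mice. All 4 groups were separate, the control and then the DTR libraries of input being followed by those of IP in the same order. Ccnd2 rose after damage by an LFC of 0.49 (SE 0.10, adjusted p = 0.00181) in IP and 0.35 (SE 0.10, adjusted p = 0.0255) in input. Under the alternative settings by limma, edgeR and DESeq2 the IP value lay between 0.37 and 0.57 (adjusted p between 0.000712 and 0.0265). It was 0.40 with median centring and 0.37 by edgeR. Taken by replicate number, the IP ratio of DTR to control was 1.04 in replicate 1, 1.29 in replicate 2, 1.70 in replicate 3 and 1.496 in replicate 4. The call in input was lost when DTR input replicate 2, 3 or 4 or control input replicate 3 or 4 was left out (adjusted p between 0.053 and 0.078), with LFCs of 0.32 to 0.35. Against input, Ccnd2 was higher in IP by 0.78 (SE 0.10, adjusted p = 5.59e-06) in control and 0.93 (SE 0.10, adjusted p = 1.01e-06) in DTR mice.

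Ccnd1 (cyclin D1, chr7:144929931-144939925, minus strand), a common target of growth signals, was the only one of the 9 genes with a negative LFC in both IP against input comparisons. It was measured at 98.9, 121, 109 and 116 CPM in control input, and at 74.2, 104, 91.4 and 91.0 CPM in control IP. DTR input held 69.6, 92.6, 106 and 118 CPM, and DTR IP 64.2, 97.3, 72.6 and 77.5 CPM. Replicate 1 was the lowest in each of the 4 groups, and the groups overlapped in each comparison. The LFC of IP against input was -0.28 (SE 0.16, adjusted p = 0.186) in control and -0.31 (SE 0.16, adjusted p = 0.147) in DTR mice. IP and input of 1 replicate came from the same homogenate, and when that pool entered the fit as a blocking term both passed as lower (adjusted p = 0.0414 and 0.0280). In DTR mice Ccnd1 also passed without DTR input replicate 1 (LFC = -0.47, adjusted p = 0.0206). After damage its LFC was -0.24 (adjusted p = 0.353) in IP and -0.22 (adjusted p = 0.473) in input. An exonic stretch of 1100 bases, 23.4% of the Ccnd1 exons, is shared with the gene Oraov1 on the opposite strand, whose reads cannot be told apart there because the library kit does not mark strand.

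Per kilobase of exon, the levels of the D-type cyclins added up to 63.4 ± 1.62 CPM per kb in control input and 99.7 ± 3.33 in control IP (SD, n = 4). In DTR mice the sum was 65.1 ± 6.07 CPM per kb in input and 102 ± 6.30 in IP. Ccnd1 made up 37.2% ± 2.35 of that sum in control input, but 19.2% ± 2.72 in control IP. The corresponding shares were 31.3% ± 4.44 in DTR input and 16.2% ± 2.23 in DTR IP. The part of the gene length effect in IP in these differences between the fractions was not tested. By group means Ccnd1 had the largest share in control input, where its range overlapped that of Ccnd3, and the smallest in DTR input, where the 3 ranges overlapped, and in both IP groups, where it overlapped neither. The shares depend on the length used. With the longest annotated transcript of each gene in place of all its exons, an alternative added after the data were seen, Ccnd3 had the largest share in every group (46.7% in control input and 62.4% in control IP), and Ccnd1 held 28.0% and 13.2% in these. Per kilobase of all exons, Ccnd2 held 30.3% ± 2.30 in control IP and 40.2% ± 2.32 in DTR IP, and Ccnd3 held 50.5% ± 2.52 and 43.6% ± 2.65. On the longest transcripts the same shares were 24.4% and 33.4% for Ccnd2 and 62.4% and 55.2% for Ccnd3. The summed level per kb of exon in IP was similar in control and DTR libraries while the 4 DTR libraries all had a larger Ccnd2 share than any of the control libraries.

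**Figure D2:**
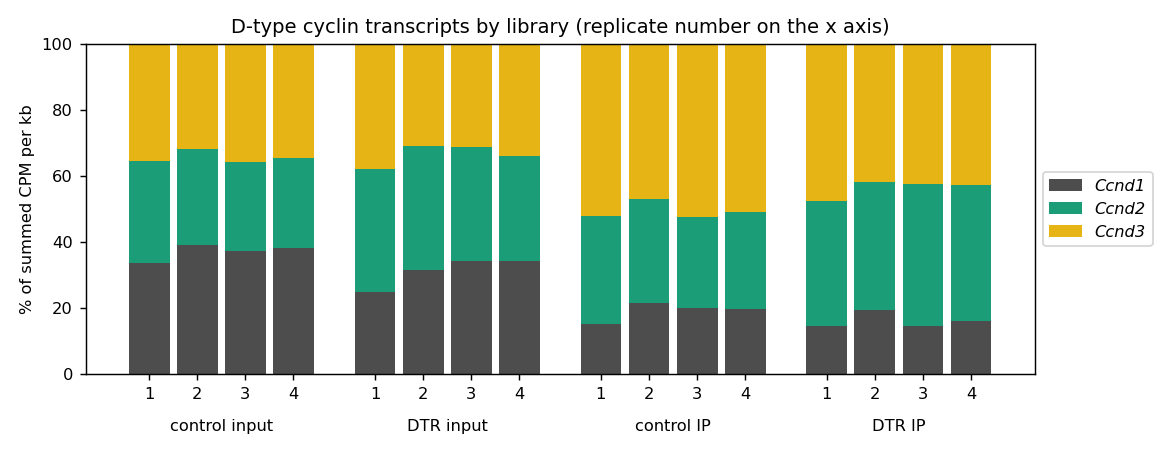
Share of Ccnd1, Ccnd2 and Ccnd3 in their summed CPM per kilobase of exon, in percent, for each of the 16 libraries. The Ccnd1 share lies between 33.8% and 39.2% in control input and between 14.6% and 21.6% in the 8 IP libraries, and the Ccnd2 share is above 37% in every DTR IP library and below 33% in every control IP library.

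CDK4 and CDK6 are the catalytic partners of the D-type cyclins. Cdk4 (chr10:127063534-127067920, plus strand) had the highest level per kilobase of the 9 genes in all 4 groups, 97.0 ± 4.89 CPM per kb in control input and 99.2 ± 10.6 in control IP. Cdk6 (chr5:3341485-3531008, plus strand) had the lowest in all 4 groups, 1.25 ± 0.24 and 2.22 ± 0.39 CPM per kb. The Cdk6 share of the summed kinase level ran from 1.03% in a control input library to 3.46% in a DTR IP library. RefSeq promoter sequences (GRCm38.p6, 250 bases before to 50 after a start) were matched for 5 of the 9 genes, Ccnd3, Ccne1, Cdk2, Cdk4 and Cdk6, and not for Ccnd1, Ccnd2, Ccne2 and Ccna2. The windows of this kinase pair are printed because these partners of the same cyclins had the highest and the lowest level per kilobase. The 7 motifs counted on both strands were E2F (TTTGGCGC, TTTCGCGC, TTTCCCGC or TTTGCCGC), the GC box (GGGCGG), AP-1 (TGAGTCA or TGACTCA), CRE (TGACGTCA), CHR (TTTGAA), TCF/LEF (CTTTGAT or CTTTGTT) and CACGTG. Capitals mark CACGTG, which was singled out after the counts were seen, the E-box bound by MYC family proteins, which reads the same on both strands. The Cdk4 window is chr10:127063285-127063584 and the Cdk6 window chr5:3343643-3343942, both on the plus strand.
Cdk4: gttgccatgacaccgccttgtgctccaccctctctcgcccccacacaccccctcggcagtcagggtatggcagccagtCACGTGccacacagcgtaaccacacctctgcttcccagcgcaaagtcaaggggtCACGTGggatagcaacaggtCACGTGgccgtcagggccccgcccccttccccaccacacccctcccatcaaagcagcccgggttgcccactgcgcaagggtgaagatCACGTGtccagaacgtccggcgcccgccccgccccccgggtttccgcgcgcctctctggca
Cdk6: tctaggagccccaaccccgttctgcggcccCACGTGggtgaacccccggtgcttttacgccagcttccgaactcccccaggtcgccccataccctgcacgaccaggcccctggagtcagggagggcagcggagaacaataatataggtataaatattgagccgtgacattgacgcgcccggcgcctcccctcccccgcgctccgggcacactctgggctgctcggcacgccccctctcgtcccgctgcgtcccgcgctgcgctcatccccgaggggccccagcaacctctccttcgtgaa
The Cdk4 window held 4 copies, with first bases 172, 118, 98 and 11 bases before the start, and the Cdk6 window held 1, at 220 bases before the start. CACGTG was in 7.15% of the 32851 windows of that length in the table, and 8 of them (0.0244%) held 4 or more copies. No copy was found in the windows of Ccnd3, Ccne1 and Cdk2. The GC box, held by 35.7% of all windows, was found 2 times in each of the 2 Ccnd3 windows, 4 times in Ccne1, 6 in Cdk2 and 3 in Cdk4. An E2F match was found 1 time, in Cdk2 (2.26% of windows), and a TCF/LEF match 1 time, in Cdk4 (9.33%), whereas AP-1 (5.2%), CRE (1.79%) and CHR (17.9%) had no match in these windows. These are matches of letters and not sites shown to be bound.

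Cdk4 differed between groups by less than its spread in every comparison. Control input held 304, 314, 338 and 305 CPM and DTR input 323, 308, 329 and 307 CPM. Control IP held 312, 282, 332 and 364 CPM and DTR IP 318, 278, 333 and 360 CPM. The same-numbered IP libraries of control and DTR mice differed by ratios of 0.988 to 1.02 only, while the replicates within each IP group ranged from 278 to 364 CPM. The LFC after damage was 0.04 in IP (95% interval -0.16 to 0.25, adjusted p = 0.830) and 0.02 in input (-0.19 to 0.23, adjusted p = 0.935), and both were below 0 with median centring, edgeR and DESeq2. Against input the LFC of IP was 0.10 (-0.11 to 0.30) in control and 0.12 (-0.09 to 0.32) in DTR mice, neither of which passed. The gene Tspan31 on the other strand shares 19.7% of the Cdk4 exons. Myc, Mycn and Max, which encode E-box binding proteins, were looked up after the promoter matches had been seen. Mycn averaged 49.9 ± 7.14 CPM in the input and 173 ± 27.2 in the IP of control mice, and 33.4 ± 9.46 and 111 ± 30.0 CPM in those of DTR mice (SD, n = 4), so it was higher in IP than in input in both genotypes (LFC = 1.78, adjusted p = 7.47e-06 and LFC = 1.71, adjusted p = 1.46e-05). Mycn fell after damage in IP (LFC = -0.70, adjusted p = 0.0477), near the threshold, and did not pass in input (LFC = -0.62, adjusted p = 0.0950). Whether any of these proteins acts on Cdk4 here was not tested. Myc did not pass after damage in IP (LFC = 0.30, adjusted p = 0.258), nor did Max (LFC = -0.74, adjusted p = 0.10), but Max was lower after damage in input (LFC = -1.43, adjusted p = 0.00240).

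Cdk6 had a pattern like that of Ccnd2. It stood at 20.9, 19.5, 15.96 and 13.7 CPM in control input and at 34.2, 36.7, 27.8 and 25.2 CPM in control IP. DTR input held 25.3, 20.0, 27.6 and 21.9 CPM and DTR IP 35.4, 42.0, 51.4 and 38.6 CPM. IP libraries were above input libraries without overlap in both genotypes, by an LFC of 0.79 (SE 0.16, adjusted p = 0.000591) in control and 0.77 (SE 0.16, adjusted p = 0.000830) in DTR mice. DTR and control overlapped in both fractions. The LFC after damage was 0.40 (SE 0.16, adjusted p = 0.102) in IP and 0.42 (SE 0.16, adjusted p = 0.102) in input, and neither passed. All 4 same-numbered ratios were above 1 in both fractions, from 1.04 to 1.85 in IP and from 1.02 to 1.73 in input.

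**Figure D3:**
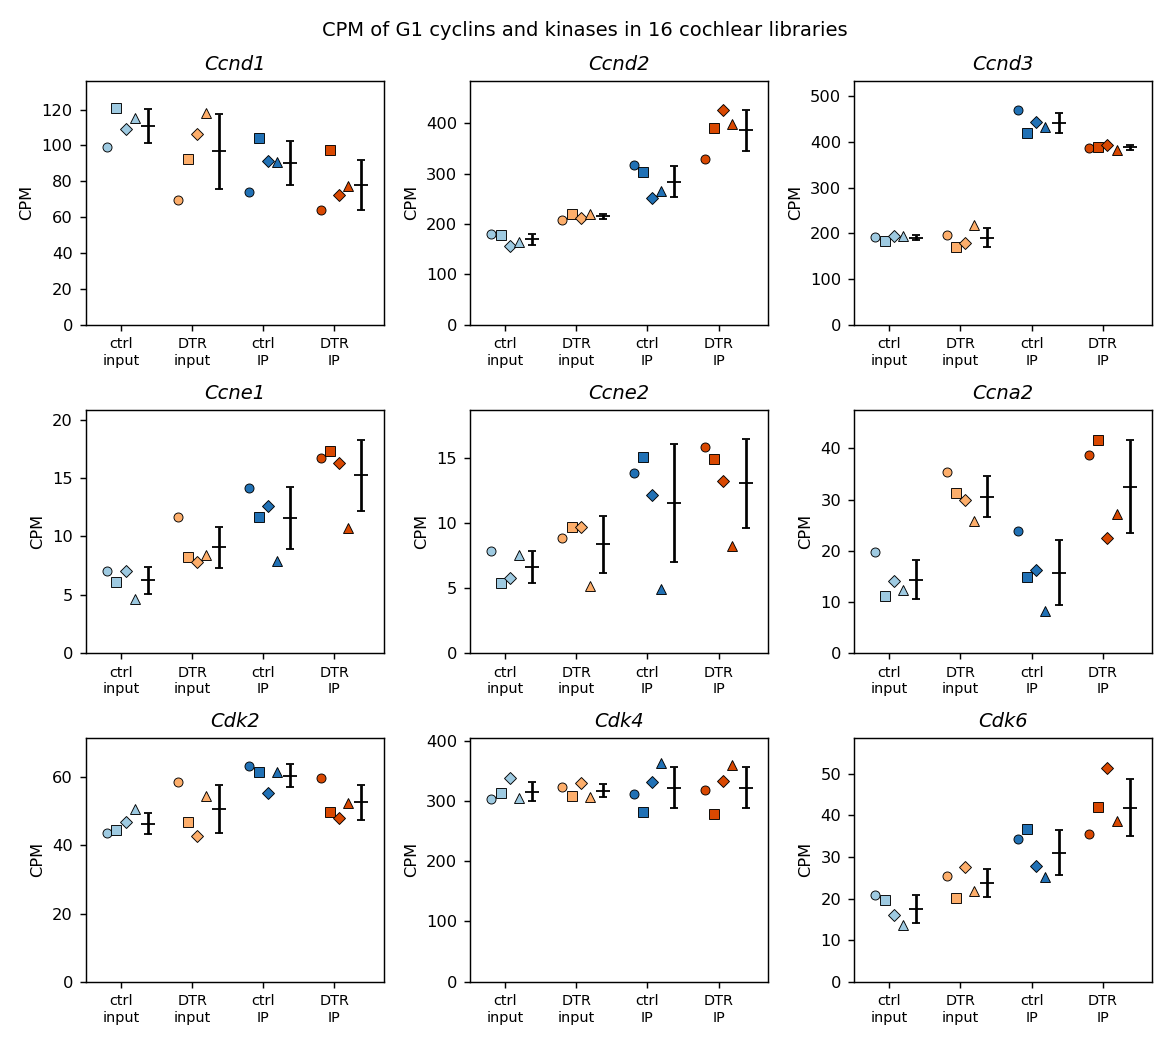
CPM of the 9 genes in each library, with circles, squares, diamonds and triangles for replicates 1 to 4 and the bar at the right of each group giving mean ± SD (n = 4). Ccnd2, Ccnd3 and Cdk6 separate IP from input in both genotypes, Ccnd2, Ccne1 and Ccna2 separate DTR from control in input, and the Cdk4 groups overlap throughout.

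The E-type cyclins were low, and the mean of both was higher in IP than in input in each genotype. Ccne1 (cyclin E1, chr7:38097984-38107534, minus strand) was measured at 7.08, 6.11, 7.04 and 4.68 CPM in control input and at 14.1, 11.7, 12.6 and 7.88 CPM in control IP. In DTR mice input held 11.7, 8.27, 7.84 and 8.44 CPM and IP 16.7, 17.3, 16.3 and 10.7 CPM. Replicate 4 was the lowest library of both IP groups and of control input. Ccne1 was higher in IP by an LFC of 0.88 (SE 0.19, adjusted p = 0.000941) in control, where the groups were separate, and by 0.72 (SE 0.19, adjusted p = 0.00523) in DTR mice, where they overlapped. In input, every DTR library was above every control library, with an LFC of 0.48 (SE 0.19, adjusted p = 0.109) that did not pass. It passed with the replicate number as a block (adjusted p = 0.0225). In IP the LFC after damage was 0.32 (SE 0.19, adjusted p = 0.289).

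Ccne2 (cyclin E2, chr4:11191351-11204779, plus strand), which acts through the same kinase, varied more between replicates. It was measured at 7.89, 5.43, 5.80 and 7.53 CPM in control input and 13.8, 15.1, 12.2 and 4.97 CPM in control IP. DTR input held 8.86, 9.74, 9.70 and 5.15 CPM and DTR IP 15.8, 15.0, 13.2 and 8.22 CPM. Replicate 4 was below the other replicates in all groups but control input. Ccne2 passed as higher in IP in control mice (LFC = 0.73, SE 0.27, adjusted p = 0.0362). That call was lost without quantile normalization (adjusted p = 0.0878), with median centring (0.0745), with no filter on low values (0.0880), and without control IP replicate 1, 2 or 3 or control input replicate 2 or 3 (0.0761 to 0.109). In DTR mice the LFC was 0.62 (SE 0.27, adjusted p = 0.0740), and it passed when the pool was a blocking term (adjusted p = 0.0231) and without DTR IP replicate 4 (LFC = 0.80, adjusted p = 0.0286). The damage comparisons did not pass (LFC = 0.15 in IP and 0.26 in input). The gene Ints8 on the opposite strand shares 17.4% of the Ccne2 exons. Per kilobase Ccne1 gave 55.0% to 60.8% of the summed E-type level in the group means, with single libraries between 45.0% and 68.3%.

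CDK2 is the kinase of the E-type cyclins and of cyclin A2 in S phase. Cdk2 (chr10:128697939-128705031, minus strand) stood at 43.6, 44.6, 46.8 and 50.7 CPM in control input and 63.4, 61.5, 55.4 and 61.5 CPM in control IP. DTR input held 58.4, 46.9, 42.8 and 54.5 CPM and DTR IP 59.9, 49.9, 48.1 and 52.3 CPM. The control fractions were separate and the DTR fractions overlapped. The LFC of IP against input was 0.37 (SE 0.10, adjusted p = 0.00646) in control and 0.03 (SE 0.10, adjusted p = 0.856) in DTR mice. The difference between these values, which equals the difference of the damage change in IP from that in input, was -0.34 (95% interval -0.64 to -0.04) with an unadjusted p of 0.0267 and an adjusted p of 0.857. It was the only one of the 9 genes below 0.05 before adjustment, as were 5.12% of all genes. By limma 0 of the 9 passed for this difference after adjustment, where 0.0118% of all genes passed, and edgeR, DESeq2 and the fit with the pool as a block also called 0 of them. Cdk2 after damage had an LFC of -0.24 in IP (adjusted p = 0.129) and 0.11 in input (adjusted p = 0.595).

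Ccna2 (cyclin A2, chr3:36564865-36572150, minus strand), the cyclin of S and G2 phase, had the largest change after damage of the 9 genes. Control input held 19.7, 11.2, 14.1 and 12.4 CPM and DTR input 35.4, 31.2, 29.9 and 25.8 CPM. Control IP held 23.8, 14.9, 16.2 and 8.17 CPM and DTR IP 38.7, 41.6, 22.5 and 27.2 CPM. The input groups were separate, while in IP the highest control library, replicate 1, lay just above the lowest DTR library, replicate 3. Ccna2 rose by an LFC of 1.00 (SE 0.24, adjusted p = 0.00771) in IP and 1.08 (SE 0.24, adjusted p = 0.00481) in input. Leaving out single libraries kept the IP value between 0.77 and 1.20 (adjusted p between 0.00202 and 0.0295). Same-numbered ratios were 1.63, 2.79, 1.39 and 3.33 in IP and 1.80, 2.79, 2.11 and 2.07 in input. IP and input did not differ beyond their spread (LFC = 0.10, 95% interval -0.41 to 0.60 in control, and 0.01, -0.50 to 0.52 in DTR mice). The gene Exosc9, which shares 12.5% of the Ccna2 exons on the opposite strand, did not pass after damage (LFC = -0.10 in IP and 0.02 in input).

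**Figure D4:**
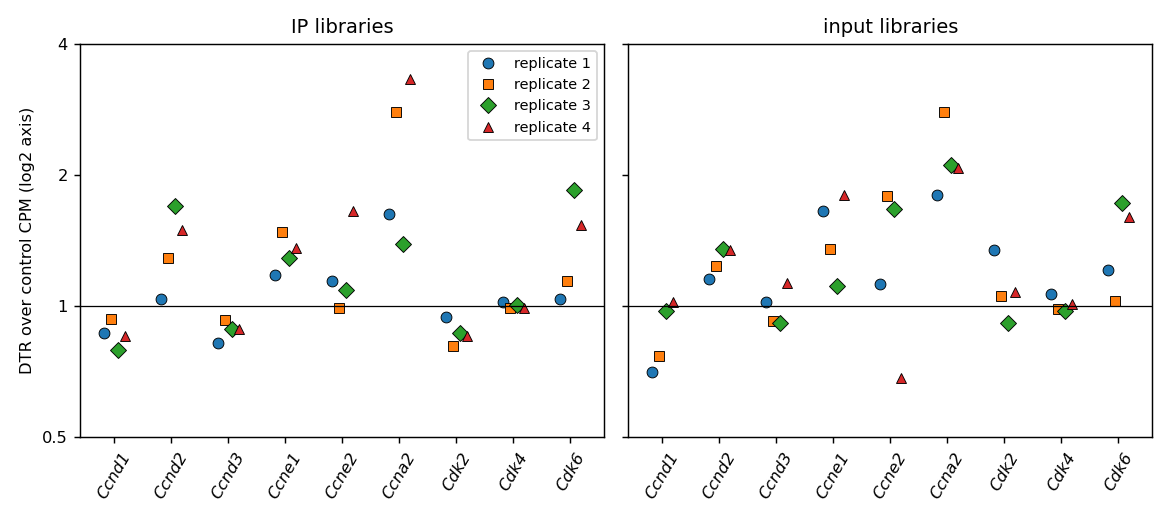
Ratio of DTR to control CPM on a log2 axis for each gene, by replicate number, in IP (left) and input (right). All 4 ratios of Ccnd2, Ccna2, Ccne1 and Cdk6 are above 1 in both fractions, and those of Cdk4 in IP lie between 0.988 and 1.02.

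Groups without overlapping CPM were found for 5 of the 9 genes in control IP against input (background 38.7%), 3 in DTR IP against input (32.8%), 2 in DTR against control IP (17%) and 3 in DTR against control input (19.3%). Ordered per kilobase of all exons, Cdk4 was followed in control input by Ccnd1 (23.6 ± 2.00 CPM per kb), Ccnd3 (21.8 ± 0.60), Ccnd2 (18.0 ± 1.18), Cdk2 (7.46 ± 0.51), Ccna2 (3.52 ± 0.92), Ccne1 (2.34 ± 0.42), Ccne2 (1.91 ± 0.35) and Cdk6. Of these neighbours, the ranges of Ccnd1 and Ccnd3 and of Ccne1 and Ccne2 overlapped. In DTR IP the order was Cdk4, Ccnd3 (44.2 ± 0.51 CPM per kb), Ccnd2 (41.0 ± 4.31), Ccnd1 (16.5 ± 2.98), Cdk2 (8.45 ± 0.83), Ccna2 (7.96 ± 2.23), Ccne1 (5.73 ± 1.14), Ccne2 (3.74 ± 0.97) and Cdk6 (2.99 ± 0.49). There Ccnd3 and Ccnd2 overlapped, as did each neighbouring pair from Cdk2 down to Cdk6. Ccna2 ranked above Ccne1 in both input groups and in DTR IP, but not in control IP, where the 2 genes overlapped. On the longest transcript lengths Cdk4 remained first and Cdk6 last in every group, but Ccnd3 (49.5 ± 1.37 CPM per kb) stood clear above Ccnd1 (29.7 ± 2.52) in control input, and in DTR IP Ccnd3 (100.6 ± 1.17) no longer overlapped Ccnd2 (61.0 ± 6.41).

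Over all tested genes 8.44% were higher and 7.3% lower in DTR than in control IP, which is the background of the following counts after damage in IP. Among the genes that control these kinases, 2 of 6 tested CDK inhibitors rose and 1 fell after damage in IP. Cdkn1b, which encodes the inhibitor p27Kip1, fell from 79.6 ± 19.7 to 42.0 ± 9.34 CPM in IP (LFC = -0.96, adjusted p = 0.000962) and from 29.1 ± 5.18 to 12.6 ± 1.55 CPM in input (LFC = -1.21, adjusted p = 0.000110). Cdkn1c, encoding p57Kip2, rose from 365 ± 33.8 to 569 ± 68.4 CPM in IP (LFC = 0.72, adjusted p = 6.90e-05). Cdkn1a, encoding p21Cip1, rose from 323 ± 30.8 to 389 ± 48.0 CPM (LFC = 0.32, adjusted p = 0.0478). The inhibitors thus moved in opposite directions. Of 7 genes of CDK activation and assembly 3 rose, Cks2 (LFC = 1.23), Mnat1 (0.50) and Cdk7 (0.36), the last 2 encoding subunits of the CDK-activating kinase. Of 13 Rb and E2F genes 1 rose, E2f5, whose product is a repressor-type E2F (LFC = 0.62, adjusted p = 0.0101), and none fell, a share of 7.69% that was close to the background. Of 11 genes of cyclin and inhibitor turnover 1 fell, Skp1a, a subunit of SCF ubiquitin ligases (LFC = -0.84, adjusted p = 3.25e-05), a share of 9.09% that was also close to it, and none rose.

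Of 10 genes known to induce G1 cyclins, 3 rose and 2 fell in IP. Jun (LFC = 2.75, adjusted p = 3.86e-09) and Egr1 (LFC = 3.85, adjusted p = 1.35e-06), both immediate early genes, rose, while Mycl fell (LFC = -1.16, adjusted p = 1.84e-05). Of 25 S phase genes, a list that holds Ccne1 and Ccne2, 12 rose and none fell in IP (median LFC 0.39), with Tk1 at 1.47, Rrm2 at 1.41 and Mcm3 at 0.96. In input 3 rose (12%, median 0.30), where 7.17% of all tested genes were higher. Of 22 G2 and mitosis genes 20 rose in IP (median 1.51) and 15 in input (median 0.81). Both lists were chosen with earlier results of these data known, and the study had reported Cdk1, Ccnb2 and Cenpf as raised after damage. By limma 0 genes of either list passed for the difference of the damage change in IP from that in input. Only 0.0118% of all tested genes passed it, so this count cannot show that the rises were alike. The median difference was 0.67 for the G2 and mitosis genes and 0.14 for the S phase genes, beside -0.005 over all genes. In control mice 17 of the 22 G2 and mitosis genes were lower in IP than in input (median -1.13), where 20.7% of all tested genes were lower. An example was Cdk1, which fell from 16.1 ± 2.53 to 6.67 ± 1.36 CPM between the fractions. Ccna2 had an LFC of 0.10 in that comparison. The mesenchyme, macrophage and endothelial marker sums given above were higher in the DTR IP libraries too, and their part in the rise of Ccna2 and of these lists was not tested. Of 11 other cell cycle cyclins and kinases 4 rose after damage in IP, among them Ccnb2 (LFC = 2.01), Cdk1 (1.63) and Ccng1 (1.15). This list shares Ccnb1, Ccnb2 and Cdk1 with the G2 and mitosis genes, so the 2 counts are not separate.

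The genes whose values ran most closely with each member over the 16 libraries were found by Pearson's r on the log2 normalized values. These libraries share pools, fractions and genotypes, so r describes the pattern across the groups as much as that within them. Ccnd3 ran with Zdhhc18 and Nrbp1 (r = 0.99 each), Ccnd2 with Slc1a2 (0.97) and Nr3c1 (0.96), and Ccnd1 with Malt1 (0.90) and Frzb (0.89). Cdk6 ran with Ccnd2, a member itself, and with Runx2 (0.94 each), and Cdk4 with Hsd17b10 (0.94) and Edf1 (0.93). Ccne1 was closest to Gm21992 (0.96) and Il17rd (0.94), and Ccne2 to Abhd17b (0.93) and Cops2 (0.92). Ccna2 was closest to Fam83d (0.93) and Asf1b (0.91), and Cdk2 had the lowest values, with Hsdl1 (0.84) and Gabre (0.82). Between members, Ccnd1 had a negative r with each of the other 8, from -0.72 with Ccne1 to -0.35 with Cdk4.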

How the data were processed

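Input and IP RNA of P4 cochleae was sequenced after SMART-Seq v4 library preparation. According to the study's methods the authors aligned reads with HISAT2 (version 2.0.4) to GRCm38 and counted them per gene with HTSeq, whereas the submitters' processing notes list TopHat. Neither the release of the gene annotation nor whether counting used strand is given in the sources used here. The deposited values are CPM, in which each library sums to 1000000. Reads were recovered by taking the smallest positive value of each library as a single read. On that scale 100% of the values were whole reads within 0.01 read, with a wider margin for the largest counts. Depth was 28089836 to 41966310 counted reads, and the limit of 3 reads covers counting error only. Of 50316 genes listed, 2587 have no value in any library.

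CPM were quantile normalized, genes were kept if every replicate of some group reached 0.5 CPM, and log2(CPM + 0.5) was fitted with limma 3.58.1 (R 4.3.3) as group means over 16 libraries, with a trend, two-sided, and Benjamini-Hochberg adjustment over 16994 genes. LFCs are on that scale, which understates changes of low genes. The scripts were tested on simulated data. IP and input of a number come from the same homogenate, and their deviations from the group means correlated (mean r 0.37 in control and 0.41 in DTR). Same-numbered control and DTR libraries, which come from different mice, correlated alike (0.39 in IP and 0.36 in input, lowest of all pairs 0.29). What the numbers share across genotypes was not tested, and the reported fits hold no term for it. Centring on group means itself makes r between numbers negative (-0.13 to -0.12), so that value carries no separate information. Alternatives were no quantile normalization, median centring, pseudocounts of 0.1 and 1, no filter, a filter at 2 CPM, a model of the compared groups alone, the replicate block, each library left out, and edgeR 4.0.16 and DESeq2 1.42.0 on the recovered reads.

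The members, pathway lists and markers were chosen with earlier results of these data known. Named besides the members are the 3 genes of each list with the smallest p among those passing in DTR IP against control IP, the 2 genes most correlated with each member, Slc1a3 and Lgr5 as label checks, and genes overlapping a member. Myc, Mycn and Max were added after their values were seen. Levels per kilobase use the union of a gene's exons, and, as an alternative added after the data were seen, its longest transcript. Positions and lengths are from GENCODE M21 (GRCm38), and promoters from RefSeq (GRCm38.p6).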

Additional observations from a re-analysis of the deposited data

Results flagged for a closer look

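Of 36 sets of 4 libraries (9 genes in 4 groups), 2 held a library set apart from the other 3 by a gap larger than Dixon's critical value. Chance alone would set apart about 5% of such sets. Both concerned Ccne1. In DTR input, replicate 1 stood at 11.7 CPM, above the other replicates at 7.84 to 8.44 CPM, and without it the LFC of DTR against control input was 0.38 (adjusted p = 0.299) in place of 0.48. In DTR IP, replicate 4 stood at 10.7 CPM, below the others at 16.3 to 17.3 CPM, and without it the LFC of DTR against control IP was 0.45 (adjusted p = 0.120) in place of 0.32. Neither comparison passed with or without these libraries in the fit without a block.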

How the results depend on the processing

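No LFC of the 9 genes that passed the test changed sign under any alternative. With each library left out in turn, 420 of 432 values stayed on their side of the threshold and 34 changed sign, and under the other settings 433 of 441 stayed and 16 changed sign. None of the values that changed sign passed in the reported fit, where all were within 0.15 of 0. The number of the 9 genes called with a library left out was 1 to 2 for DTR against control input, 2 in every case for DTR against control IP, 5 to 6 for control IP against input, 4 to 5 for DTR IP against input and 0 for the difference between the fractions. With the replicate number or pool as a block, the counts were 2 for DTR against control IP, 3 for input, 7 for control IP against input, 6 for DTR IP against input and 0 for the difference. The block added Ccnd1 as lower in both IP comparisons, Ccne2 in DTR IP and Ccne1 in DTR input, and changed no other call of the 9 genes. Across all genes the difference between the fractions passed for 2 genes by limma, 40 with the block, 49 by DESeq2 and 0 by edgeR, and the cause was not tested. On the recovered reads edgeR called 2682 genes for DTR against control IP and 2070 for input, beside 2674 and 2104 by limma. Depth limits none of the 9 genes, whose lowest count was 152 reads, whereas 4 pools a group limit Ccne2 and Ccna2 most, with SEs of 0.27 and 0.24 for the damage comparisons. The order of D-type cyclins per kilobase depended on the length used.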
